A study of Mus musculus with 12 samples.

Results

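The desmosomal cadherins of skin were read by 12 probes whose annotated RefSeq transcripts belong to 9 mouse genes, the desmogleins Dsg1a, Dsg1b, Dsg1c, Dsg2, Dsg3 and Dsg4 and the desmocollins Dsc1, Dsc2 and Dsc3. The array held 55681 probes, and 16181 genes were tested. All 12 probes were well above background on 12 of 12 arrays, so all 9 genes were measured in every mouse. Dsg2, Dsg3 and Dsc3 had 2 probes each, and the brighter one stands for the gene. The 9 genes lie next to each other on chromosome 18, in the order Dsc3, Dsc2, Dsc1, Dsg1c, Dsg1a, Dsg1b, Dsg4, Dsg3 and Dsg2.

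Desmosomes are adhesive junctions that tie the keratin filaments of neighbouring epithelial cells together. Desmogleins and desmocollins form the adhesive part between the cells, and plakoglobin, plakophilins and desmoplakin couple them to keratin inside the cell. Different members are used in different layers: Dsg4 is the desmoglein of the hair shaft, the Dsg1 genes and Dsc1 belong to the upper epidermis, Dsg3 and Dsc3 to its lower layers, and Dsg2 and Dsc2 are also used in simple epithelia and heart.

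The skin came from 12 male mice of mixed C57Bl6/129Sv background, collected 12 days after the hair had been plucked, and the study asked what Sox4 contributes to hair regrowth and to the activation of hair follicle stem cells. There were 6 wild-type mice (WT) and 6 in which Sox4 was conditionally knocked out in the skin (cKO). Each genotype had 3 mice in each of 2 experiments. Mice of Exp 1 were 68 to 72 weeks of age and those of Exp 2 were 16 to 20, and an effect of age cannot be told apart from one of the experiment. The labels name no promoter for the deletion and do not say whether WT mice carried floxed alleles.

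Each mouse gave 1 array with a single colour. A level is the log2 processed intensity of a probe minus the 75th percentile of its array, so a level of 0 is the intensity of that percentile and 1 unit is a 2-fold step. Levels of different probes are not compared with each other. The share of probes above background ran from 53.9% to 62.6% per array, and the 75th percentile lay between 364 and 554; cKO mouse 5 had the lowest value of both. Sox4 fell by 5.54 in cKO (SE 0.12, limma adjusted p = 3.8e-09). Its level was 1.90 to 2.43 in the 6 WT mice and -4.26 to -2.55 in the 6 cKO mice.

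Marker genes of the tissue differed between libraries. Of 12 hair shaft keratins 10 were measured, and their mean level was 6.11 to 7.50 in 11 mice and 3.78 in cKO mouse 5. That mouse was also low for melanocyte genes (0.33, against 2.87 to 4.05 in the others) and adipocyte genes (0.41, against 2.56 to 4.19), and highest for suprabasal (5.99) and basal (5.81) epidermal genes. Skeletal muscle genes were at -4.18 to -3.09 in WT of Exp 1, at -1.24 to 5.35 in WT of Exp 2, at -3.14 to 0.31 in cKO of Exp 1 and at 4.32 to 5.56 in cKO of Exp 2. In whole skin, fewer cells of a type and less RNA per cell cannot be told apart.

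**Figure D1:**
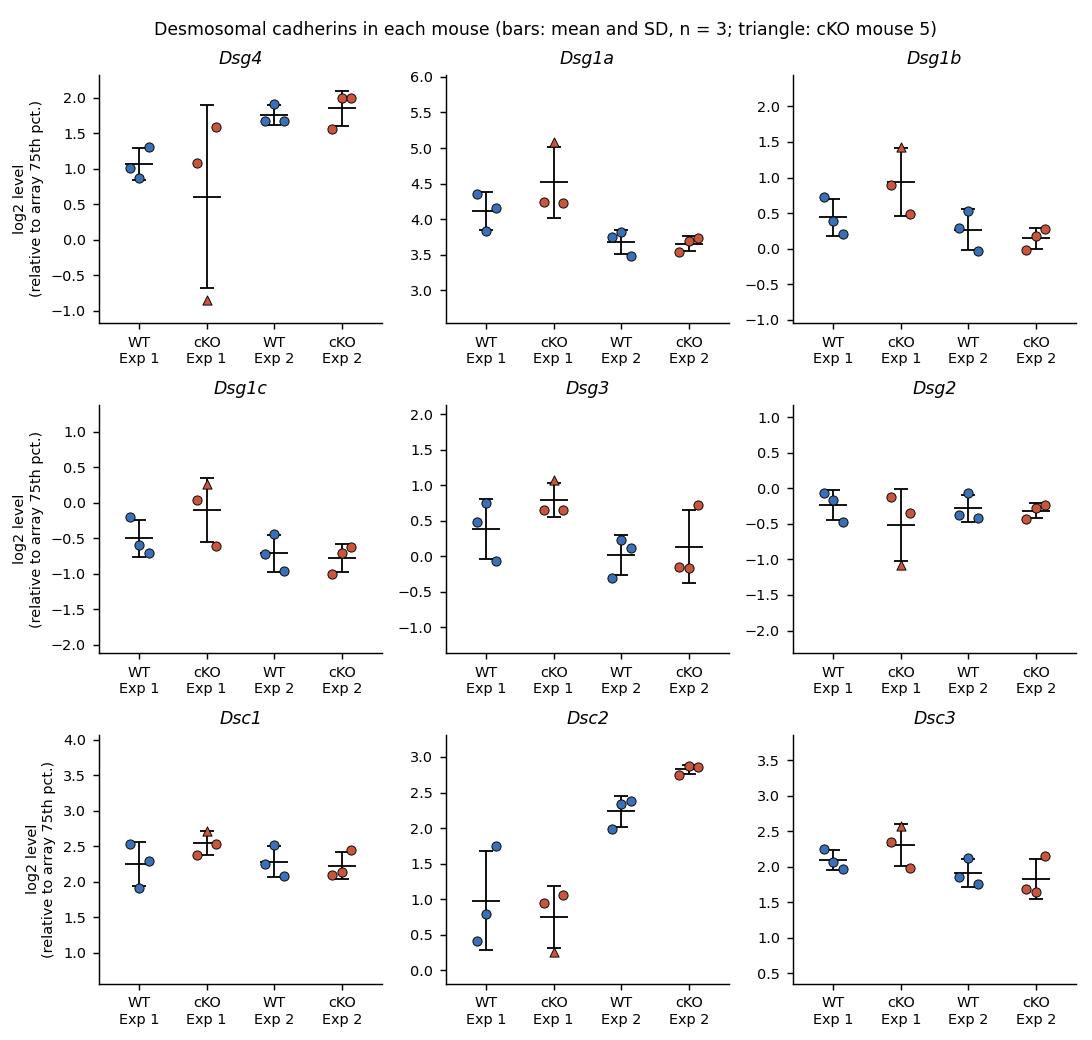
Levels of the 9 desmosomal cadherin genes in each mouse, in log2 units (0 is the 75th percentile of an array), by genotype and experiment; points are mice, bars are group means with SD (n = 3), and the triangle is cKO mouse 5. Dsc2 is lower and Dsg1a higher in every mouse of Exp 1 than in every mouse of Exp 2, and cKO mouse 5 is lowest for Dsg4 at -0.85.

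Dsg4, the desmoglein of the hair shaft, whose mutation gives the lanceolate hair phenotype in mice, had levels of 1.01, 0.87 and 1.31 in WT mice 1, 2 and 3 of Exp 1. In cKO mice 2, 5 and 6 of the same experiment Dsg4 was at 1.08, -0.85 and 1.59. In Exp 2 it was at 1.67, 1.92 and 1.68 in WT mice 4, 5 and 6 and at 1.56, 1.99 and 2.00 in cKO mice 1, 3 and 4. The genotypes overlapped in both experiments, and cKO mouse 5 lay below all 11 other mice.

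Dsg1a encodes a desmoglein 1, the desmoglein of the upper epidermis and the autoantigen of pemphigus foliaceus in humans. Its levels in Exp 1 were 4.35, 3.83 and 4.16 in WT mice 1, 2 and 3 and 4.23, 5.09 and 4.23 in cKO mice 2, 5 and 6. In Exp 2 they were 3.74, 3.81 and 3.48 in WT mice 4, 5 and 6 and 3.53, 3.69 and 3.74 in cKO mice 1, 3 and 4. All 6 mice of Exp 1 were above all 6 of Exp 2, and the genotypes overlapped within each experiment.

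Dsg1b and Dsg1c are the further desmoglein 1 genes of the mouse. Dsg1b ranged from 0.21 to 0.73 in WT of Exp 1, from 0.49 to 1.44 in cKO of Exp 1, from -0.04 to 0.53 in WT of Exp 2 and from -0.02 to 0.27 in cKO of Exp 2. Dsg1c ranged from -0.70 to -0.21, from -0.61 to 0.26, from -0.97 to -0.44 and from -1.01 to -0.62 in the same groups. For both genes the highest mouse was cKO mouse 5. Probes of closely similar transcripts such as these can read each other's RNA, which was not tested.

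Dsg3, the desmoglein of the lower epidermal layers and the autoantigen of pemphigus vulgaris in humans, was at 0.48, 0.74 and -0.07 in WT of Exp 1 and at 0.66, 1.07 and 0.65 in cKO of Exp 1. In Exp 2 it was at -0.31, 0.22 and 0.12 in WT and at -0.16, -0.17 and 0.72 in cKO. Within each experiment the genotypes overlapped. Dsg2, the desmoglein with the widest use among epithelia, ranged only from -0.47 to -0.06 in 11 mice and was at -1.08 in cKO mouse 5. With its second probe that mouse, at -3.11, lay within the range of the other mice (-3.29 to -2.33).

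Dsc2, a desmocollin of many epithelia and of heart, was at 0.40, 0.79 and 1.75 in WT mice 1, 2 and 3 and at 0.94, 0.25 and 1.06 in cKO mice 2, 5 and 6 of Exp 1. In Exp 2 it was at 1.98, 2.34 and 2.38 in WT mice 4, 5 and 6 and at 2.75, 2.87 and 2.86 in cKO mice 1, 3 and 4. Every mouse of Exp 1 was below every mouse of Exp 2.

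Dsc1, the desmocollin of the upper epidermis, ranged from 1.91 to 2.53 in WT and from 2.10 to 2.72 in cKO. Dsc3, the desmocollin of the lower epidermis, ranged from 1.75 to 2.26 in WT and from 1.64 to 2.57 in cKO. Both groups overlapped for both genes, and cKO mouse 5 was the highest mouse in each.

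Loss of Sox4 left no desmosomal cadherin past the test. In the contrast of cKO minus WT averaged over experiments, 0 of 9 members were called at an adjusted p under 0.05 in limma, where 0.420% of all 16181 genes were called. Without adjustment, p was under 0.05 for 0 of 9, against 12.2% of all genes. Dsg4 differed by -0.18 (SE 0.34, 95% interval -0.94 to 0.59, limma adjusted p = 0.86).

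The other members had estimates of either sign. Dsg1a differed by 0.19 (SE 0.16), Dsg1b by 0.19 (SE 0.17), Dsg1c by 0.17 (SE 0.17) and Dsg3 by 0.27 (SE 0.20). Dsc1 differed by 0.12 (SE 0.13), Dsc3 by 0.06 (SE 0.13), Dsc2 by 0.18 (SE 0.22) and Dsg2 by -0.16 (SE 0.16). The differences were positive for 7 of 9 members, with a median of 0.17 against -0.04 for all genes tested, although Dsc3 turned to -0.03 when arrays were scaled to the median. An exact permutation test with genotypes exchanged within experiments gave two-sided p values from 0.25 for Dsg3 to 0.875 for Dsg4 over 400 arrangements, the smallest possible being 0.005. All 6 cKO mice lay outside the range of all 6 WT mice for 0 of 9 members, where 1.26% of genes showed such a separation.

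The sign for Dsg4 rested on cKO mouse 5. Without that mouse the averaged difference of Dsg4 was 0.18 (limma adjusted p = 0.61). The others were then 0.05 for Dsg1a, 0.07 for Dsg1b, 0.08 for Dsg1c, -0.02 for Dsg2, 0.20 for Dsg3, 0.08 for Dsc1, 0.31 for Dsc2 and -0.01 for Dsc3, with 0 of 9 called. The 2 slides that held both genotypes gave -0.05 (slide 1) and -0.77 (slide 2, which held cKO mouse 5) for Dsg4. Within slide 1 the averaged difference of Dsg1a was -0.02, and within slide 2 it was 0.43.

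In Exp 1 alone, 0 of 9 members were called, where 0.117% of all genes were. Dsg4 differed by -0.45 between cKO and WT, Dsg2 by -0.28 and Dsc2 by -0.23. The epidermal members differed the other way, Dsg1b by 0.50, Dsg3 by 0.41, Dsg1a by 0.40, Dsg1c by 0.40, Dsc1 by 0.30 and Dsc3 by 0.20. Without cKO mouse 5 the difference was 0.27 for Dsg4, 0.02 for Dsc2 and 0.00055 for Dsg2. The negative signs of Dsg4 and Dsg2 in this experiment thus rested on that mouse. That of Dsc2 also turned, to 0.16, when WT mouse 3 was left out instead. With cKO mouse 5 left out, the epidermal members were at 0.25 for Dsg1b, 0.27 for Dsg3, 0.12 for Dsg1a, 0.22 for Dsg1c, 0.21 for Dsc1 and 0.07 for Dsc3. None of the 9 members separated the 3 cKO from the 3 WT mice of Exp 1, where 12.9% of genes did.

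In Exp 2, 0 of 9 members were called, where 0.0618% of all genes were. Dsc2 had the largest difference of the members, 0.59 (SE 0.32, limma adjusted p = 0.98), and its 3 cKO mice (2.75 to 2.87) lay above its 3 WT mice (1.98 to 2.38). Such a separation with cKO higher was seen for 2.71% of genes. In Exp 2 the digit in the array name was 2 for all 3 WT mice and 1 for all 3 cKO mice. Within that experiment genotype and this digit cannot be told apart. The Exp 2 difference was 0.10 for Dsg4, or -0.05 with arrays scaled to the median, and the lowest among the members was -0.12 for Dsg1b. The difference between the Exp 1 and Exp 2 effects was -0.82 for Dsc2, 0.62 for Dsg1b and -0.55 for Dsg4, with 0 of 9 members called where 0.00618% of genes were.

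**Figure D2:**
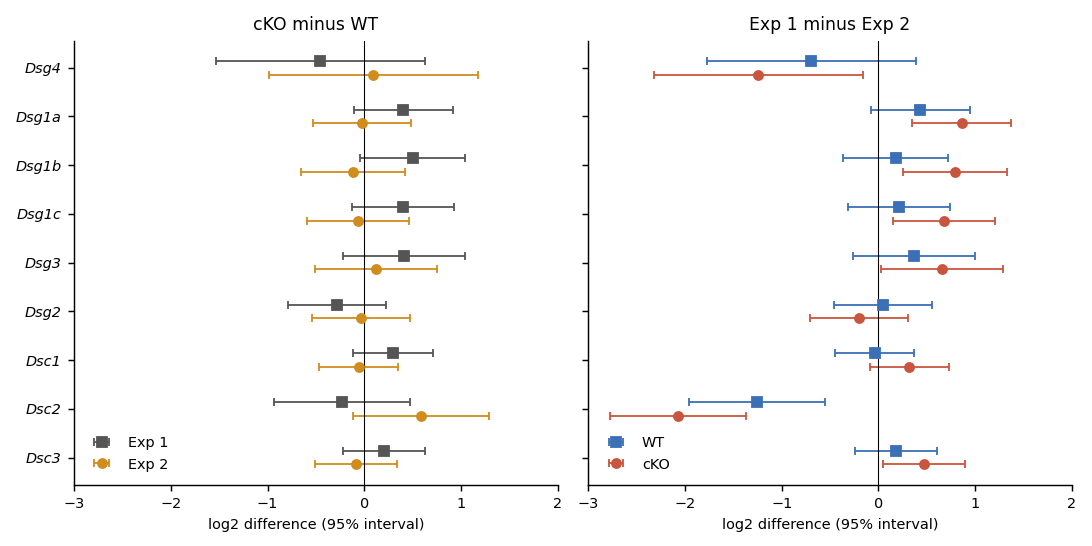
Differences of the 9 genes in log2 units with 95% intervals from the limma fit; the left panel gives cKO minus WT in each experiment and the right panel Exp 1 minus Exp 2 in each genotype. The intervals for genotype all include 0, and Dsc2 is the member whose interval between experiments excludes 0 in both genotypes.

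Between the experiments, and with them the ages, Dsc2 and Dsg1a were the members called, in cKO only. The counts of members are given beside the share of all genes, and the members were not tested as a group against it. Dsc2 was lower in the older mice of Exp 1 by 2.07 in cKO and by 1.25 in WT, and Dsg1a was higher in Exp 1 by 0.86 in cKO and by 0.43 in WT. Over all 12 mice these were the only members without overlap between the experiments, 2 of 9, where 10.3% of genes showed none. An exact permutation test with experiments exchanged within genotypes, added after the data were seen, gave p = 0.005 for Dsc2 and for Dsg1a. This is the smallest it can give with 400 arrangements. Genes without overlap between the experiments reach it by construction, so it restates that lack of overlap. The same exact test gave p = 0.01 for Dsg4 at a mean difference of -0.97. It gave 0.04 for Dsg1b, 0.05 for Dsg1c and for Dsc3, 0.055 for Dsg3, 0.325 for Dsc1 and 0.745 for Dsg2; these values are not adjusted for the 9 genes. Without cKO mouse 5, with 200 arrangements, p was 0.005 for Dsc2 and Dsg1a, again the smallest possible and for the same reason. It was 0.015 for Dsg4, 0.055 for Dsg1b, 0.075 for Dsg1c, 0.095 for Dsg3, 0.105 for Dsc3, 0.49 for Dsc1 and 0.515 for Dsg2.

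Within cKO, 2 of 9 members were called, Dsc2 lower and Dsg1a higher in Exp 1, where 9.98% of all genes were called (5.38% higher and 4.60% lower). The difference of Dsc2 was -2.07 (SE 0.32, limma adjusted p = 0.012, a 4.21-fold difference), and all 3 mice of Exp 1 were below all 3 of Exp 2. That of Dsg1a was 0.86 (SE 0.23, limma adjusted p = 0.043), with all 3 mice of Exp 1 above all 3 of Exp 2. Without cKO mouse 5 the difference was -1.82 for Dsc2 (limma adjusted p = 0.028) and 0.58 for Dsg1a (0.077), which ended the call of Dsg1a. Over 25 alternative analyses the call held in 21 for Dsc2 and in 5 for Dsg1a; leaving out any of 10 of the 12 mice, WT mice included, put Dsg1a above the threshold, at adjusted p values of 0.051 to 0.12.

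Dsg1b differed between the experiments in cKO by 0.79 (limma adjusted p = 0.065), Dsg1c by 0.68 (0.095), Dsg3 by 0.66 (0.16), Dsc3 by 0.47 (0.14) and Dsc1 by 0.32 (0.29). Dsg2 differed by -0.20 (0.60). With cKO mouse 5 left out these were 0.55 for Dsg1b, 0.50 for Dsg1c, 0.52 for Dsg3, 0.34 for Dsc3, 0.23 for Dsc1 and 0.08 for Dsg2. Dsg4 differed by -1.24 (SE 0.49, 95% interval -2.33 to -0.16, limma adjusted p = 0.13), by -0.52 without cKO mouse 5 and by -1.73 without cKO mouse 6, where it was called (0.034). An unadjusted p under 0.05 was reached by 7 of 9 members, against 28.2% of all genes. That count includes cKO mouse 5. Without that mouse Dsg1c, Dsg3 and Dsc3 no longer reached it, and Dsg1a, Dsg1b, Dsg4 and Dsc2 still did, where 3707 of all 16181 genes did. The SE was then 0.24 for Dsg1c, 0.32 for Dsg3 and 0.20 for Dsc3, beside the smaller differences given above. With every mouse kept, the median over the members was 0.47, against 0.03 for all genes. The cKO mice of the experiments did not overlap for Dsg1a, Dsg1b, Dsg1c and Dsc2, 4 of 9 members, where 31.2% of genes did not.

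Within WT, 0 of 9 members were called, where 0.840% of all genes were. Dsc2 differed by -1.25 (SE 0.32, 95% interval -1.96 to -0.55, limma adjusted p = 0.079) and was lower in 3 of 3 mice of Exp 1. It was the single member with an unadjusted p under 0.05, against 18.5% of all genes. Dsg4 differed by -0.69 (limma adjusted p = 0.49), Dsg1a by 0.43 (0.35), Dsg3 by 0.37 and Dsc1 by -0.04. The WT mice of the experiments did not overlap for Dsg4, Dsg1a and Dsc2, 3 of 9 members, where 28.0% of genes did not. Whether the cKO and WT differences between experiments are unequal is the interaction given above, which called no member.

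Slide was the known batch. For Dsc2 the difference between experiments in WT was -1.07 within slide 1, -1.78 within slide 2 and -1.40 in a fit blocked by slide. In cKO it was -2.13 with the block (limma adjusted p = 0.041), -1.75 within slide 1 (0.26) and -2.61 within slide 2. For Dsg1a in cKO it was 0.93 with the block (0.082), 0.70 within slide 1 and 1.35 within slide 2. The sign of both genes was the same in each of these fits, and the call of Dsg1a was lost with the block. For Dsg4 in cKO the difference was -0.23 within slide 1 and -2.85 within slide 2. The cKO values of slide 2 set mouse 5 against 1 mouse of Exp 2, so they are given with no test. The other comparisons within a slide have 1 mouse on one side, which is assumed to vary like the other groups.

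Skeletal muscle genes moved with the experiments as well. Their list had a median difference of -6.89 in WT and -5.96 in cKO. WT mouse 5 had a muscle level of -1.24 and the other WT mice of Exp 2 were at 4.48 and 5.35, while Dsc2 in WT mouse 5 was at 2.34, beside 1.98 and 2.38 in those mice. With the muscle level as a covariate the Dsc2 difference in cKO was -2.38 (limma adjusted p = 0.18) and that of Dsg1a 0.90 (0.28). Between experiments in cKO, 5 of 8 basal keratinocyte genes were called, all higher in Exp 1 (list median 0.89), and 4 of 11 suprabasal genes, also higher (median 1.19), where 5.38% of all genes were called higher. Without cKO mouse 5, 3 of 8 basal genes were called, all higher (median 0.63), and 3 of 11 suprabasal genes, 1 higher and 2 lower (median 0.79), where 3.85% of all genes were called. Hair shaft keratins had negative differences in 10 of 10 measured genes, with 0 called. Their median was -1.62 in cKO, -0.77 there without cKO mouse 5, and -0.89 in WT. The part of these tissue differences in the cadherin results was not tested.

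**Figure D3:**
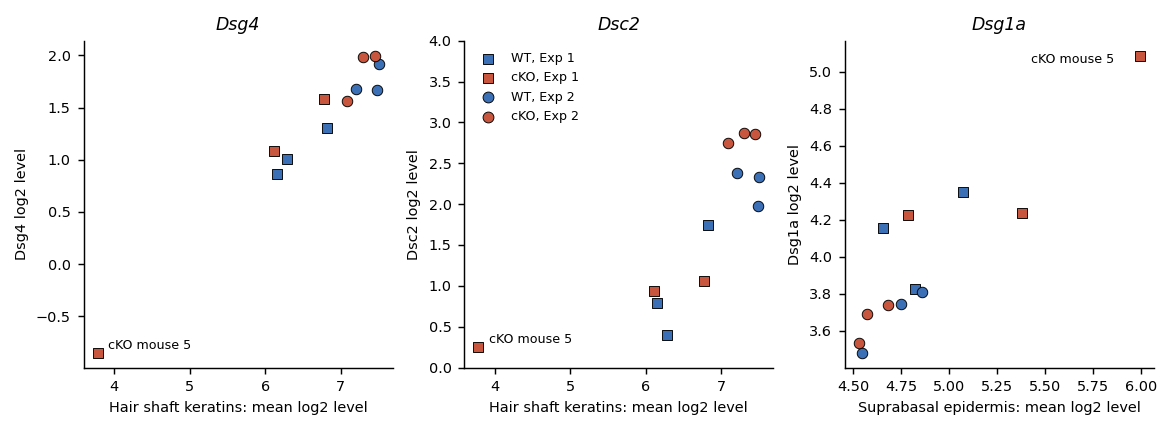
Level of Dsg4 and of Dsc2 against the mean level of the measured hair shaft keratins, and of Dsg1a against that of suprabasal epidermal genes, all in log2 units; each point is a mouse, squares are Exp 1 and circles are Exp 2. cKO mouse 5 has the lowest hair shaft keratin level, 3.78, and the highest Dsg1a level, 5.09.

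Between the experiments Dsg4 and Dsc2 had negative differences in both genotypes, and Dsg1a, Dsg1b, Dsg1c, Dsg3 and Dsc3 had positive ones, most of them not called. For Dsc3 in WT this held for the brighter probe only (0.18, against -0.046 for the other). Dsc1 and Dsg2 had no common sign, with 0.32 and -0.20 in cKO and -0.04 and 0.05 in WT. In cKO the difference of Dsg4 minus that of Dsg1a was -2.11, minus that of Dsg1b -2.04, minus that of Dsg3 -1.90 and minus that of Dsc3 -1.71. In WT the same subtractions gave -1.13, -0.87, -1.06 and -0.88. Against Dsg1c, Dsc1 and Dsg2 the values were -1.92, -1.56 and -1.04 in cKO and -0.90, -0.66 and -0.74 in WT. Against Dsc2 it ran the other way, with 0.83 in cKO and 0.56 in WT. These values describe the arrays and carry no test, and in cKO they include mouse 5, without which the differences were -0.52 for Dsg4 and 0.58 for Dsg1a.

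cKO mouse 5 showed the split most. Relative to the mean of cKO mice 2 and 6, its level differed by -2.18 for Dsg4, which is 4.54-fold, by -0.85 for Dsg2 and by -0.75 for Dsc2. It differed by 0.86 for Dsg1a, 0.74 for Dsg1b, 0.55 for Dsg1c, 0.42 for Dsg3, 0.40 for Dsc3 and 0.27 for Dsc1. The second Dsg3 probe did not share this rise, at 0.03 in mouse 5 against 0.59 and -0.14 in cKO mice 2 and 6. The second Dsg2 probe was at -3.11, against -2.58 and -2.65. In the same mouse the inner root sheath list was at 6.35, against 7.42 and 7.63 in cKO mice 2 and 6. The list of hair shaft regulators was at 1.25, against 3.06 and 3.40. This is a description of 1 mouse.

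Of 72 relations between members within an experiment, 3 had an adjusted p of Pearson's r under 0.05. Within Exp 1 (n = 6), Dsg1c and Dsc3 had Pearson r 0.99 (exact p = 0.0014, adjusted over 72 relations 0.033) and Spearman rho 1 (exact p = 0.0028, adjusted 0.067), and r was 0.97 without the 2 mice farthest from the median. In Exp 2 (n = 6), Dsg1a and Dsg1b had r 0.96 and Dsg1c and Dsg2 had r 0.94, with rho 1 in both. Their exact p values were the same as those of the first pair, and r was 0.98 and 0.86 without the 2 farthest mice. In the other experiment r was 0.76 for Dsg1c and Dsc3, 0.87 for Dsg1a and Dsg1b and -0.42 for Dsg1c and Dsg2. Only the brighter probe of Dsg2 and of Dsc3 was used in these relations. Dsg4 and Dsg1a had r -0.81 in Exp 1 (exact p = 0.12, adjusted 0.26; rho -0.37, exact p = 0.50, adjusted 0.68), and r was 0.45 without the 2 farthest mice, so the negative value rests on those mice. In Exp 2 the same pair had r 0.66 (exact p = 0.21, adjusted 0.35; rho 0.26, exact p = 0.66, adjusted 0.80), and 0.48 without the 2 farthest mice.

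Dsg4 and Dsc2 had r 0.67 in Exp 1 (exact p = 0.18, adjusted 0.32; rho 0.89, exact p = 0.033, adjusted 0.22), and r was 0.82 without the 2 farthest mice. In Exp 2 they had r 0.43 (exact p = 0.39, adjusted 0.48; rho 0.54, exact p = 0.30, adjusted 0.54), and 0.76 without the 2 farthest mice. No pooled coefficient is given for pairs with Dsc2 or Dsg1a, because the experiments form separate clusters for these genes. In Exp 2 the cKO mice also lay above the WT mice for Dsc2, so r with Dsc2 there can hold that gap. All mice share the array scaling, so a correlation between genes also holds what the arrays have in common.

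**Figure D4:**
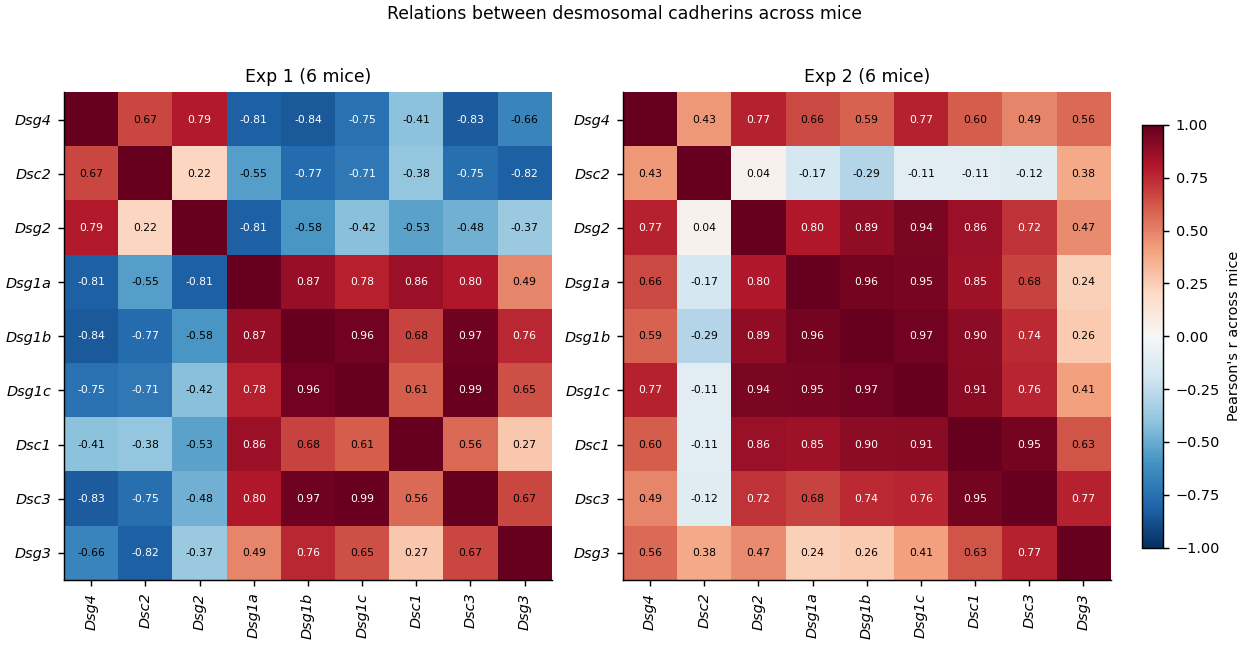
Pearson r between the levels of each pair of members, within the 6 mice of Exp 1 and within the 6 mice of Exp 2; the colour scale runs from -1 to 1. Dsg4 is negative with Dsg1a in Exp 1 (-0.81) and positive in Exp 2 (0.66).

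The genes whose levels ran most like each member over the 12 mice were described by Pearson r, with no test. For Dsg4 the 10 nearest genes were Rnf182, Ly6g6d, Krtap8-1, Gprc5d, S100a3, Krt31, Psors1c2, Sptssb, Krtap13-1 and Hspa2. Their r lay between 0.98 and 0.99, and between 0.905 and 0.967 without cKO mouse 5. Like Dsg4, all 10 had negative differences between the experiments in both genotypes, so these values also hold part of that gap. Krt31 encodes a hair shaft keratin and Krtap8-1 and Krtap13-1 encode keratin-associated proteins of the shaft.

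For Dsc2 the nearest genes were Ms4a8a, Crisp1 and Krt84, a hair keratin, and for Dsg1a Serpina12, Serpinb7 and Heca. Their r is not given, since these 2 members did not overlap between the experiments, and over the 12 mice it holds that gap. The r values given for the other members can hold part of such a gap too. For Dsg1c the nearest genes by r were Dsg1b (0.98), Plek2 (0.97) and Pou3f1 (0.96), and for Dsg1b Rassf7 (0.98), Pou3f1 (0.98) and Fxyd3 (0.98). Dsc3 ran with Ankrd27 (0.97), the plaque gene Pkp1 (0.95) and the basal keratin gene Krt5 (0.94). Dsg3 was nearest to Pik3c2a (0.95), Ern1 (0.94) and Adgrf2 (0.94), Dsc1 to Rdh16 (0.89), Tmprss11f (0.87) and Srrm3 (0.86), and Dsg2 to Traf1 (0.96), Ttyh2 (0.93) and Ptch1 (0.92). The values for Dsg2 were 0.86 for Traf1, 0.69 for Ttyh2 and 0.70 for Ptch1 without cKO mouse 5.

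Dsg2, Dsg3 and Dsc3 were each read by a second probe. Over the 12 mice the probe pairs correlated with r 0.79 for Dsc3, 0.57 for Dsg2 and 0.42 for Dsg3, as a description. In cKO the difference between experiments was 0.66 for the brighter Dsg3 probe and 0.33 for the other, and 0.47 and 0.32 for the Dsc3 probes. For Dsg2 it was -0.20 and 0.26, so the sign for Dsg2 depended on the probe. In WT the difference was 0.18 for the brighter Dsc3 probe and -0.046 for the other, so that sign depended on the probe too. The averaged genotype difference of Dsc3 was 0.06 with the brighter probe and -0.02 with the other. None of these second-probe values bore on a call.

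The cytoplasmic partners of the cadherins did not pass the test for genotype. Of the 8 plaque genes 0 were called, with a median averaged difference of 0.09, against -0.04 for all genes. Periplakin (Ppl) differed by 0.23, desmoplakin (Dsp) by 0.21, plakoglobin (Jup) by 0.20 and plakophilin 2 (Pkp2) by -0.29. In cKO the median difference between experiments was 0.36, with 0 called.

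The corneodesmosome list holds corneodesmosin, proteases of the skin and a protease inhibitor. For genotype 0 of 7 were called, with a median of 0.22. Its 4 named genes were Spink5 (0.38), Klk6 (0.28), Klk7 (0.22) and St14 (-0.15). Between experiments in cKO, 3 of 7 were called: the inhibitor gene Spink5 (0.89, limma adjusted p = 0.027) and the protease gene Klk5 (1.33, 0.047) were higher in Exp 1, and Klk14 (-1.59, 0.043) was lower, where 9.98% of all genes were called. Klk14 was well above background on 7 of 12 arrays only, and the other genes of the list on all 12. Without cKO mouse 5 only Spink5 was called (0.63, limma adjusted p = 0.040), and Klk5 was at 0.81 (0.051) and Klk14 at -1.03 (0.070). These genes were chosen after their values were seen.

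The adherens junction list, the classical cadherin junction of the same cells, had 0 of 7 genes called for genotype, with a median of -0.05. Beta-catenin (Ctnnb1) differed by -0.20, alpha-catenin (Ctnna1) by -0.08, E-cadherin (Cdh1) by 0.10 and P-cadherin (Cdh3) by -0.11. Between experiments in cKO 0 were called and the median was 0.03. Simple epithelial genes, whose keratins mark cells that also use Dsg2 and Dsc2, had negative values in 5 of 5 genes, with a median averaged difference of -1.05 and 0 called. Their median was -0.85 without cKO mouse 5, and 3 of 5 were then called, all lower in cKO, where 0.655% of all genes were called.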

How the data were processed

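Total RNA of 12 skins was hybridised to 12 single-colour arrays. Per the file headers, the scanner files hold processed intensity values of Feature Extraction 11.5.1.1, which are background-subtracted and not scaled between arrays, raw median spot and background intensities, and 0 or 1 flags. The authors' deposited table gives log2 levels, with column medians of 6.76 to 6.77; the submitters' processing notes name limma, and how the table was background-corrected and centred is unknown here. The column of cKO mouse 1 correlated with its own array at r 0.263, the other columns at 0.697 to 0.81, so the table served as an alternative only.

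Spots marked as outliers were left out, processed signals were taken to log2, spots of 1 probe were averaged, and values were set relative to the array's 75th percentile. Probes were named by transcript accession through the RefSeq gene table of GRCm38.p6, which named 27509 of 55681. A probe was kept if well above background on at least 3 of 12 arrays, and the brightest kept probe stood for a gene. limma 3.58.1 in R 4.3.3 fitted 4 group means to 16181 genes (8 residual and 2.3 prior degrees of freedom), with 6 contrasts, two-sided tests and Benjamini-Hochberg adjustment over all genes at 0.05. The fit was tested on simulated data. Correlations within experiments were tested over all 720 orderings.

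Genes named are the 9 members, Sox4, the genes most like each member (10 for Dsg4, 3 for the others) and up to 4 of each junction list by smallest p. The members and lists were chosen with earlier results of these data known. Alternatives were scaling, background, probe filter and choice, the authors' table, slide, the digit in the array name, the mouse number as a block, a muscle covariate and leaving out each mouse. Gene lists and the exact test between experiments were also run without cKO mouse 5, chosen after seeing the data. Normexp was run on median spot and background signals, in place of the mean spot signal first planned. Mice with the same number did not deviate together (r of deviations -0.26 to 0.07), so numbers were not taken to pair mice. The number of arrays limits the precision.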

Additional observations from a re-analysis of the deposited data

Results flagged for a closer look

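In cKO mouse 5 the level of Dsg4 was -0.85, the lowest of the 6 cKO mice and of the 6 mice of Exp 1. Its gap to the next mouse was 0.678 of the range of the cKO mice and 0.704 of the range of the Exp 1 mice, beyond Dixon's 95% limit for 6 samples. The level of Dsg2 in the same mouse was -1.08, the lowest of the 6 cKO mice, with a gap of 0.675 of their range. With the second Dsg2 probe, at -3.11 in this mouse, cKO mice 1 (-3.29) and 3 (-3.16) were lower. Both flagged levels came from 1 library, which also had the lowest share of probes above background (53.9%) and the lowest hair shaft keratin level (3.78). Whether these had a part was not tested. Of 36 groups of 6 mice examined, 3 were past the limit, and chance flags about 1 in 20 groups.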

How the results depend on the processing

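The number of members called for genotype averaged over experiments and in Exp 2 was 0 in all 25 alternatives. Within slide 2, 1 member passed for genotype in Exp 1 (Dsg4, -1.86), 1 for the interaction (Dsg4, -2.18), 1 between experiments in WT (Dsc2, -1.78) and 4 between experiments in cKO; all but the WT value rest on cKO mouse 5 against 1 mouse, with 1 mouse in most groups, and hold no test of the condition. Between experiments in cKO, 2 were called in the analysis reported, 1 with median scaling, without a filter, with slide or the array-name digit as a term, in the authors' table without the cKO mouse 1 column and with every kept probe (the last 2 chosen after seeing the data), 0 in the full authors' table, within slide 1 and with the muscle covariate, and 3 with normexp and quantile scaling (Dsg1b added, 0.77, adjusted p = 0.040). Leaving out each mouse gave 1 to 5 in cKO and 0 to 1 in WT. The 5 came without cKO mouse 6, where 2324 of all 16181 genes were called. The 1 in WT was Dsc2, without cKO mouse 5, where 597 genes were called. With the mouse number as a block, which the labels do not support as a pairing, 0 were called in cKO and the Dsc2 difference was -2.08 (adjusted p = 0.36).

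No difference whose sign turned below was called in the analysis reported, and the cause was not tested. With the block, Dsg3 turned to -0.29 (genotype, Exp 1) and -0.033 (experiments, cKO), Dsg4 to -0.12 (genotype, Exp 2) and Dsc1 to 0.17 (experiments, WT). Within slide 1 the averaged genotype difference turned to -0.019 for Dsg1a, -0.077 for Dsg1b, -0.099 for Dsg1c, -0.031 for Dsg3, -0.036 for Dsc1 and -0.14 for Dsc3. There, genotype in Exp 1 turned to 0.086 for Dsg2 and 0.25 for Dsg4, genotype in Exp 2 to -0.35 and the interaction to 0.60 for Dsg4, and experiments in cKO to 0.20 for Dsg2. Within slide 2, Dsg1b turned to 0.15 (genotype, Exp 2) and Dsc1 to 0.36 (experiments, WT). With slide as a term, Dsg4 turned to -0.070 (genotype, Exp 2) and Dsc1 to 0.017 (experiments, WT). With the array-name digit these were -0.075 and 0.070, and Dsg2 was 0.11 (experiments, cKO). In the authors' table Dsc2 turned to -0.35 (averaged), -0.46 (genotype, Exp 2) and 0.23 (interaction), Dsg4 to -1.14 (genotype, Exp 2), 0.76 (interaction) and 0.15 (experiments, cKO), Dsc1 to 0.093 (experiments, WT, also without the cKO mouse 1 column) and Dsg2 to 0.077 (experiments, cKO). Without that column, all but Dsc1 had the sign of the analysis reported: Dsc2 0.22, 0.67 and -0.91, Dsg4 0.28, -0.66 and -1.27, and Dsg2 -0.19. The mean of kept probes gave 0.026 for Dsg2 (experiments, cKO), the muscle covariate 0.033 for Dsg2 and 0.042 for Dsg4 (averaged), and normexp 0.10 for Dsc1 (experiments, WT). Scaling to the median put the middle of all genes at up to -0.21 (genotype, Exp 2) and gave -0.025 for Dsc3 (averaged) and -0.045 for Dsg4 (genotype, Exp 2).

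Leaving out each mouse gave averaged genotype differences of -0.42 to 0.18 for Dsg4 and -0.021 to 0.14 for Dsc3. In Exp 1 they were -0.94 to 0.27 for Dsg4, -0.48 to 0.00055 for Dsg2 and -0.52 to 0.16 for Dsc2, and in Exp 2 -0.27 to 0.018 for Dsg1b. The Dsg4 interaction was -1.04 to 0.18. Between experiments, Dsc1 in WT was -0.18 to 0.13 and Dsg2 in cKO was -0.40 to 0.081. Over all genes, 1615 were called between experiments in cKO, against 1031 with median scaling and 2215 with normexp and quantile scaling. The count was 62 in the authors' table, 146 with slide as a term, 92 with the array-name digit and 0 with the block or the muscle covariate. It ran from 157 (without cKO mouse 3) to 2324 (without cKO mouse 6) when 1 mouse was left out.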
